A study of Homo sapiens with 12 samples.

Results

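The cornified envelope genes described here are *SPRR1A*, *SPRR1B*, *SPRR2A*, *SPRR2D*, *SPRR3*, *IVL*, *TGM1*, *CNFN*, *A2ML1* and *EPPK1*. They were chosen by name as the rows of the deposited expression table that carry these symbols, and they make up 10 of its 23346 genes. The study sorted cultures of SW1990 and CFPAC-1, which are established human pancreatic adenocarcinoma lines, with GCTM-5, a monoclonal antibody to an antigen of pancreatic progenitor cells and carcinomas, and sequenced polyadenylated RNA. Each line gave 3 GCTM-5 positive and 3 GCTM-5 negative samples, so that the 4 groups held 12 samples in all. None of the groups carried a transgene or received a drug, and positive and negative cells were fractions of the same cultured line. Per the sample labels, the gates kept strongly stained and unstained cells only. Expression is given as RPKM, that is reads scaled by gene length and library size, so levels can be compared between genes.

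The cornified envelope is a layer of cross-linked protein laid down under the plasma membrane of squamous epithelial cells as they differentiate. Involucrin (*IVL*) is placed first as a scaffold, small proline-rich proteins (*SPRR* genes) are then joined to it as cross-bridges, and transglutaminases, of which *TGM1* encodes the membrane-bound form, make the covalent bonds. Cornifelin (*CNFN*) is a further envelope component, *A2ML1* encodes a protease inhibitor of the alpha-2-macroglobulin family made in the granular layer, and *EPPK1* encodes epiplakin, a plakin protein that binds keratin filaments. Such genes are known from the epidermis and from stratified mucosa, and the normal pancreas has no cornified epithelium. *IVL* and the *SPRR* genes lie together in the epidermal differentiation complex on the long arm of chromosome 1, and 6 of the 10 genes are there.

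In SW1990, 8 of the 10 genes were called higher in GCTM-5 positive than in negative cells, against 4.59% of all genes tested. In CFPAC-1, 5 of the 10 were called higher, against 5.65% of all genes. These 5, *SPRR1B*, *SPRR2A*, *SPRR3*, *IVL* and *EPPK1*, were called in each line, as were 0.591% of all genes. The 10 genes were chosen with earlier results of these data known, so these shares are no independent test. The study itself lists *IVL* and *EPPK* as higher in positive cells. None of the 10 was called lower in either line, and neither *TGM1* nor *CNFN* was called in either. Calls needed a change of over 2-fold and an unadjusted p under 0.01 in limma (2-sided). The fit was to log2(RPKM + 0.1) over the 16236 genes that averaged at least 0.1 RPKM, and all 10 were among them. *A2ML1* passed this filter through positive SW1990 cells alone, so the filter largely set its calls. The median fitted log2 fold change of the 10 genes was 3.54 in SW1990 and 1.31 in CFPAC-1, where that of all genes tested was -0.04 and 0.05. With a pseudocount of 1 in place of 0.1 the count in CFPAC-1 fell to 3 (*SPRR1B*, *SPRR3* and *IVL*), and with voom on recovered reads it was 4. In sorted bulk samples, fewer cells that express a gene and less RNA of it per cell cannot be told apart.

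**Figure D1:**
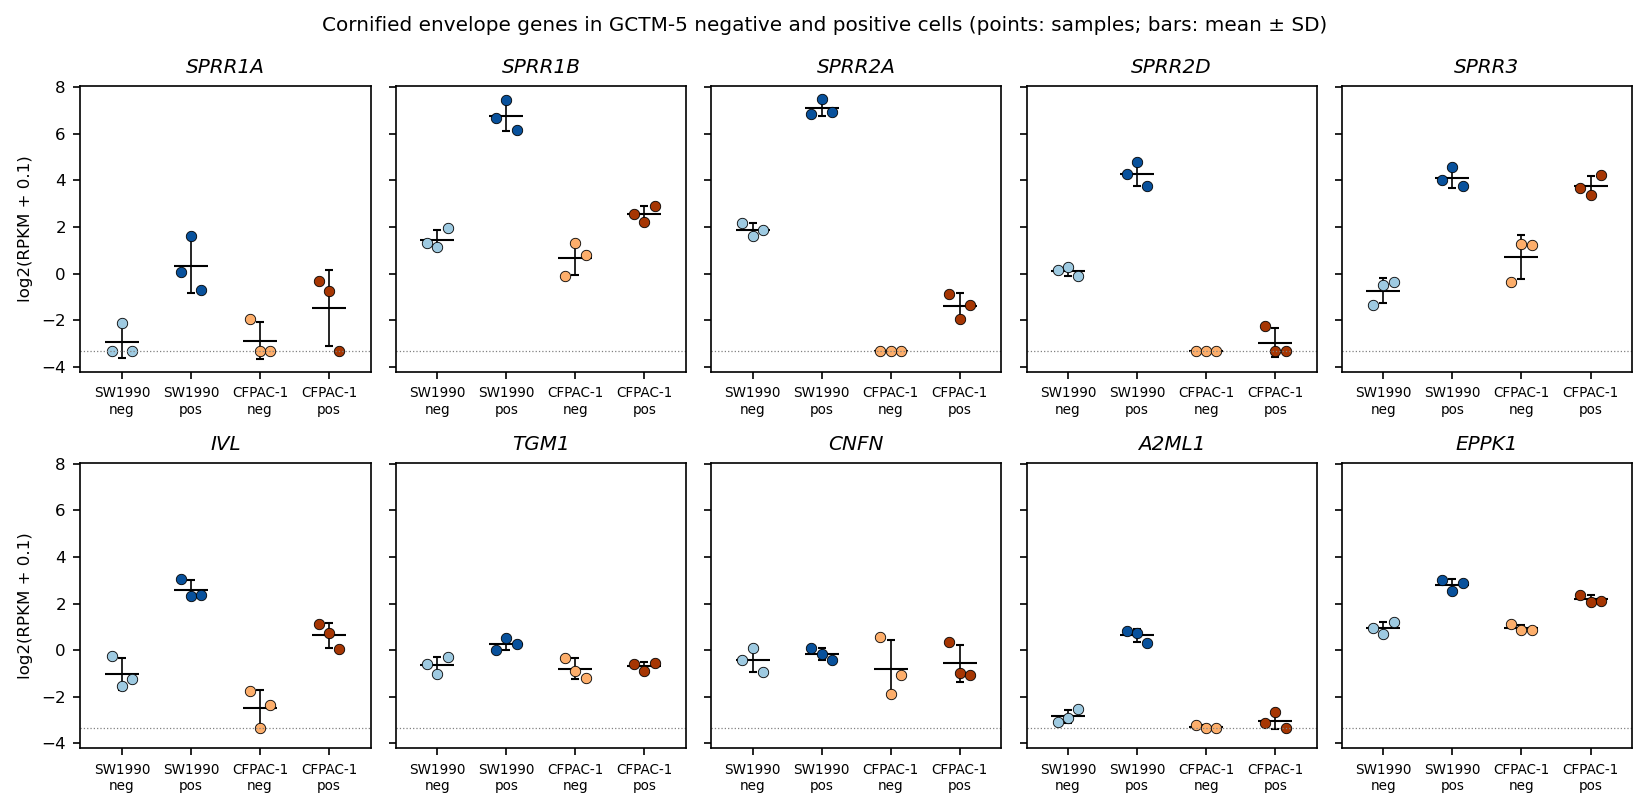
Expression of the 10 genes as log2(RPKM + 0.1) on the vertical axis, with 1 panel per gene and 1 column per group. Points are samples, the wide bar is the mean, error bars are the SD (n = 3), and the dotted line is the value of an RPKM of 0. The *SPRR1B*, *SPRR2A*, *SPRR3*, *IVL* and *EPPK1* points of positive cells lie above those of negative cells in both lines, while those of *CNFN* overlap.

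All 3 positive samples lay above all 3 negative samples for 9 of the 10 genes in SW1990, the exception being *CNFN*, and 17.9% of all genes tested were separated in this way. The same held for 5 of the 10 genes in CFPAC-1, against 28.1% of all genes. An exact permutation test of 3 samples against 3 cannot give a p below 0.1, so p-values are those of limma, with Benjamini-Hochberg adjustment over all genes fitted. The samples came from triplicate sorts, and p-values measure the spread between these sorts only. Library totals recovered from the values ranged from 9969697 reads in CFPAC-1 positive replicate 3 to 26159330 in CFPAC-1 positive replicate 1. The sources used here do not say if 1 count stands for a read or for a pair. Small counts were mostly even, such as 32, 12 and 12 for *IVL* in negative SW1990 samples, though some, such as 7 for *CNFN*, were odd. If both reads of a pair were counted, the counts are not independent. Limits and floors from reads would then be too narrow even for counting error, which was not tested. They cover counting error at most, as copies made by PCR are not independent molecules.

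Among the chromosome 1 genes, *SPRR1B*, *SPRR2A*, *SPRR3* and *IVL* were called in both lines. The 250 bases before the transcription start of these genes are shown to set the regulatory sequence of genes that moved together side by side. The sequences are those of RefSeq on GRCh38.p14, at chr1:153030953-153031202 (plus strand) for *SPRR1B*, chr1:153057513-153057762 (minus strand) for *SPRR2A*, chr1:153001499-153001748 (plus strand) for *SPRR3* and chr1:152908296-152908545 (plus strand) for *IVL*. They are written 5′ to 3′ and end at the base before the start. Capitals mark matches to the letters of an AP-1 motif (TGANTCA), an ETS motif (GGAAGT, or ACTTCC where it is on the other strand) or a TATA box (TATAAA, searched on the strand of the gene only). No AP-1, ETS and TATA matches overlapped.
SPRR1B: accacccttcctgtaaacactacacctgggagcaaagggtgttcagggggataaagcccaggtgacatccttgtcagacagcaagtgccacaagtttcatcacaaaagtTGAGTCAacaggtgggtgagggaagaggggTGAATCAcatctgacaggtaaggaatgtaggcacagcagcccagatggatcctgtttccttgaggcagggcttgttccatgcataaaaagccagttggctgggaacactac
SPRR2A: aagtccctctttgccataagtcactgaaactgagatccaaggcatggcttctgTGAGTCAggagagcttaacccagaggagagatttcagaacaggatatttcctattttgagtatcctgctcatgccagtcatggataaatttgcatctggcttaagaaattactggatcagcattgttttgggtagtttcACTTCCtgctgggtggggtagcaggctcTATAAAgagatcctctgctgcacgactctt
SPRR3: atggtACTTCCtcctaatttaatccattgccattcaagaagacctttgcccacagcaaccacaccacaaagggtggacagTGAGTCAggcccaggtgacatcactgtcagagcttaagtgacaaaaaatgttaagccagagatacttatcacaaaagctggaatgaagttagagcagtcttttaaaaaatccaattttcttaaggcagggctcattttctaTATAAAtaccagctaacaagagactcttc
IVL: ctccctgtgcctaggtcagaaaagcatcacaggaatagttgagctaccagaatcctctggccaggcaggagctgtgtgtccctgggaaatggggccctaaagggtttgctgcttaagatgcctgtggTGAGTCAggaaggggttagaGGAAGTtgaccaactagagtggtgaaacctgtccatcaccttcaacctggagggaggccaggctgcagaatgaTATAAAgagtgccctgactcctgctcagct

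AP-1 is the dimer of JUN and FOS proteins that binds such sites in genes of squamous differentiation. An AP-1 match was present in all of these sequences and in that of *SPRR1A*, so in 5 of the 5 promoters of chromosome 1 members that the table holds, while 6.57% of 35116 promoters of the same length had a match. In *SPRR1B* there were 2 matches, at bases -141 to -135 and -111 to -105 before the start. The match lay at -197 to -191 in *SPRR2A*, at -170 to -164 in *SPRR3*, at -123 to -117 in *IVL* and at -108 to -102 in *SPRR1A*. A TATA match was found in 4 of the 5, the exception being *SPRR1B*, against 6.8% of all promoters, and began 29 or 30 bases before the start. ETS matches were found in 3 of the 5, against 19.5% of all promoters. The 5 promoters lie in the same gene cluster, and all but that of *IVL* belong to related *SPRR* genes. They are therefore not independent of each other, and these counts are no test against the shares of all promoters. Of the 3 other promoters in the table, those of *CNFN* and both starts of *A2ML1*, 0 had an AP-1 match. A motif bound by grainyhead factors (AACNGGTT, both strands) matched 0 of the 8 promoters and 1.49% of all. A KLF motif (CCNCNCCC, both strands, not capitalised) matched those of *SPRR1B*, *SPRR2A* and *CNFN* only, and 53.4% of all. These letters were searched as written, so a match is not a bound site and the lack of 1 says nothing of the factor.

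**Figure D2:**
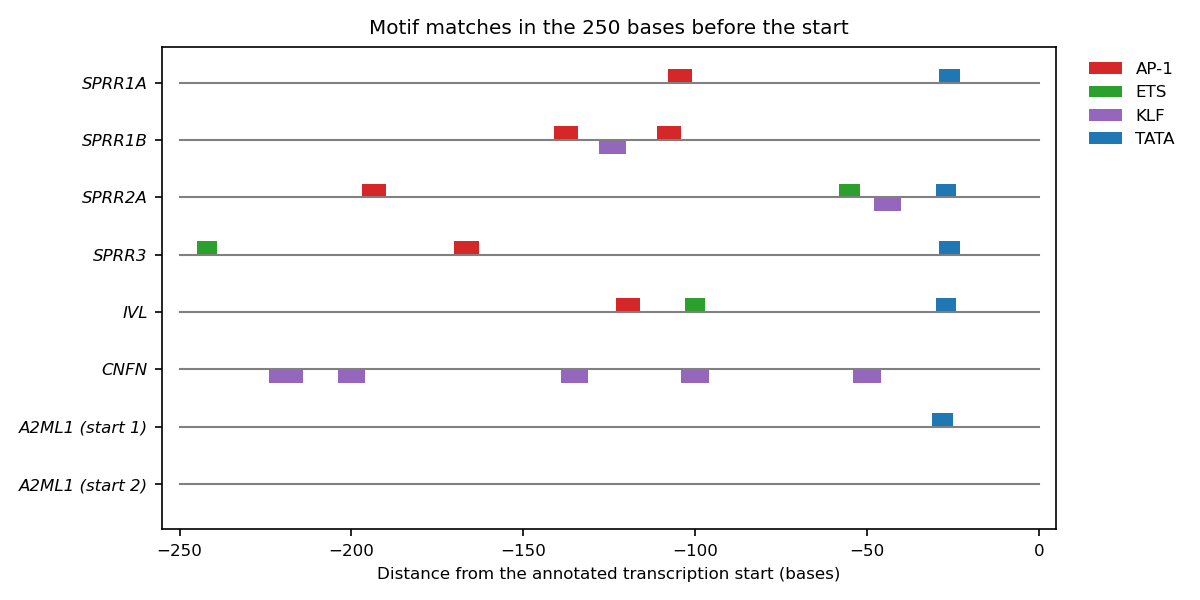
Position of motif matches in the 250 bases before the annotated start of 7 of the 10 genes, with *A2ML1* at 2 starts. The horizontal axis is the distance from the start in bases, blocks above a line are AP-1, ETS or TATA matches and blocks below it are KLF matches. AP-1 matches are found in the *SPRR* and *IVL* promoters but not in those of *CNFN* and *A2ML1*.

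*SPRR1B* (chr1:153003679-153005376 of GRCh37, plus strand) encodes a small proline-rich protein that is induced during squamous differentiation of airway and other epithelia. In SW1990, the negative samples held 2.36, 2.08 and 3.74 RPKM and the positive samples 103, 174 and 71.4 RPKM. In CFPAC-1, the negative samples held 0.830, 2.36 and 1.62 RPKM and the positive samples 5.74, 4.47 and 7.29 RPKM. The groups did not overlap in either line, and the highest CFPAC-1 positive sample was far below the lowest SW1990 positive sample. The fitted log2 fold change was 5.30 in SW1990 (standard error 0.38, adjusted p = 1.16e-06, limma) and 1.88 in CFPAC-1 (standard error 0.38, adjusted p = 0.00279). At a mean of 116 ± 52.3 RPKM (SD, n = 3), *SPRR1B* lay above 98.1% of all genes in positive SW1990 cells, against 52.6% in negative ones. With voom on recovered reads the CFPAC-1 change of 1.87 had an unadjusted p of 0.0188 and was not called.

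*SPRR1A* (chr1:152956557-152958290 of GRCh37, plus strand), the close paralog of *SPRR1B*, was hardly expressed. SW1990 negative samples held 0, 0.131 and 0 RPKM, and positive samples 0.944, 2.97 and 0.517 RPKM, from 6 to 33 reads each. The SW1990 groups did not overlap, and the fitted change was 3.25 log2 units (standard error 0.79, adjusted p = 0.00859). Pooled over samples and divided by library totals, SW1990 reads were 29.0 times as many in positive as in negative cells (exact 95% interval 7.63 to 246), from 51 and 2 reads. CFPAC-1 negative samples held 0.157, 0 and 0 RPKM and positive samples 0.700, 0.488 and 0 RPKM, so that the groups overlapped at 0. The log2 fold change in CFPAC-1 was 1.40 (standard error 0.79, adjusted p = 0.187), and without CFPAC-1 positive replicate 3, the shallowest library, it was 2.32 (adjusted p = 0.0206) and the gene was called. Of the 50-base windows of *SPRR1A* transcripts, 7.24% were also found in *SPRR1B*, and 8.25% of those of *SPRR1B* were found in *SPRR1A*. That share of the 3837 *SPRR1B* reads of positive SW1990 cells would come to 316 reads, against 51 for *SPRR1A*. In CFPAC-1 it would come to 15.7 reads in positive and 5.1 in negative cells, against 18 and 2 for *SPRR1A*. How many *SPRR1A* reads came from *SPRR1B* was not tested, and the *SPRR1A* values in both lines are uncertain for that reason.

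*SPRR2A* (chr1:153028596-153029988 of GRCh37, minus strand) belongs to the *SPRR2* group of cross-bridging proteins. In SW1990, it rose from 4.46, 2.92 and 3.51 RPKM in the negative samples to 116, 179.8 and 123 RPKM in the positive ones, which was 5.22 on the log2 scale (standard error 0.27, adjusted p = 1.58e-07). Its mean of 139.7 ± 35.0 RPKM (SD, n = 3) was the highest of the 10 genes in any group, above 98.5% of all genes in positive SW1990 cells. In CFPAC-1 it was barely detected, at 0 RPKM in each negative sample and at 0.452, 0.157 and 0.296 RPKM in the positive samples, from 8, 2 and 2 reads. Against a floor of 3 reads in each negative library, positive CFPAC-1 cells were at least 1.39-fold higher. The CFPAC-1 groups did not overlap and a change of 1.94 log2 units was called (standard error 0.27, adjusted p = 0.000303), but with a pseudocount of 1 it was 0.37 (adjusted p = 0.107).

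*SPRR2D* (chr1:153012208-153014407 of GRCh37, minus strand) followed *SPRR2A* at a lower level. SW1990 negative samples held 0.999, 1.13 and 0.829 RPKM, and positive samples 19.1, 27.8 and 13.4 RPKM, and the fitted change was 4.16 log2 units (standard error 0.33, adjusted p = 2.34e-06). In CFPAC-1 no negative sample had a read and positive replicate 1 alone had 2, so that a change was not detectable at this depth. *SPRR2* genes share stretches of identical sequence. Of their 50-base windows, 34.4% in *SPRR2A* and 19.4% in *SPRR2D* occurred in another gene, most often in *SPRR2B*, and how multiply matching reads were counted is not given in the sources used here. Values of single *SPRR2* genes are therefore uncertain, and those of the lower ones may be off by more than these shares.

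*SPRR3* (chr1:152974223-152976332 of GRCh37, plus strand), known from oesophageal and oral mucosa, was the *SPRR* gene expressed to a like level in the positive cells of both lines. In SW1990, negative samples held 0.296, 0.610 and 0.688 RPKM and positive samples 16.1, 23.9 and 13.3 RPKM. In CFPAC-1, negative samples held 0.677, 2.32 and 2.24 RPKM and positive samples 12.8, 10.3 and 18.4 RPKM. Positive and negative samples were apart in each line, and those of positive cells overlapped between lines. The log2 fold change was 4.84 in SW1990 (standard error 0.43, adjusted p = 5.68e-06) and 3.05 in CFPAC-1 (standard error 0.43, adjusted p = 0.000307). In order of level, the group means were 17.8 ± 5.48 RPKM in positive SW1990, 13.8 ± 4.17 in positive CFPAC-1, 1.74 ± 0.926 in negative CFPAC-1 and 0.531 ± 0.207 in negative SW1990 cells (SD, n = 3 each). The positive groups did not differ beyond their spread (log2 difference 0.36, 95% interval -0.57 to 1.29, adjusted p = 0.482). *SPRR3* shared 0 of its 50-base windows with another *SPRR* gene or another gene described here, and no other genes were compared.

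*IVL* (chr1:152881022-152884362 of GRCh37, plus strand) encodes involucrin, the scaffold of the envelope. In SW1990, negative samples held 0.729, 0.241 and 0.318 RPKM and positive samples 8.26, 4.97 and 5.02 RPKM. In CFPAC-1, negative samples held 0.192, 0 and 0.0940 RPKM and positive samples 2.06, 1.55 and 0.940 RPKM. Every positive sample was above every negative sample of its line. The log2 fold change was 3.61 in SW1990 (standard error 0.44, adjusted p = 7.23e-05) and 3.12 in CFPAC-1 (standard error 0.44, adjusted p = 0.000333). Unlike the *SPRR* genes of SW1990, which were all highest in positive replicate 2 (5 of 5), *IVL* was highest in positive replicate 1. Its values rested on 12 to 32 reads a sample without and 180 to 342 with the antigen in SW1990, and on 0 to 8 and 20 to 115 in CFPAC-1.

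*TGM1* (chr14:24718320-24733638 of GRCh37, minus strand), the cross-linking enzyme, was low in all groups. SW1990 negative samples held 0.561, 0.387 and 0.713 RPKM and positive samples 0.891, 1.34 and 1.10 RPKM. These did not overlap, but the change, 0.90 log2 units (standard error 0.28, adjusted p = 0.0292), was under 2-fold. It was past both thresholds with quantile normalization, at 1.16, and with voom, at 1.03, as it was without SW1990 negative replicate 3, at 1.07, or positive replicate 1, at 1.04. CFPAC-1 negative samples held 0.703, 0.445 and 0.343 RPKM and positive samples 0.564, 0.441 and 0.578 RPKM, which overlapped. The CFPAC-1 change was 0.11 (95% interval -0.49 to 0.71, adjusted p = 0.794).

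*CNFN* (chr19:42891171-42894449 of GRCh37, minus strand), which encodes cornifelin, was the gene for which no difference was found in either line. SW1990 negative samples held 0.645, 0.976 and 0.428 RPKM and positive samples 0.976, 0.781 and 0.641 RPKM. CFPAC-1 negative samples held 1.36, 0.173 and 0.380 RPKM and positive samples 1.16, 0.404 and 0.380 RPKM. Groups overlapped in both lines, and replicates 2 and 3 were below replicate 1 in each CFPAC-1 group. The log2 fold change was 0.24 in SW1990 (95% interval -0.97 to 1.45, adjusted p = 0.798) and 0.22 in CFPAC-1 (95% interval -0.99 to 1.43, adjusted p = 0.792). With 2 to 16 reads a sample, changes within these intervals were not detectable.

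*A2ML1* (chr12:8975217-9039597 of GRCh37, plus strand), the protease inhibitor gene, was near 0 except in positive SW1990 cells. SW1990 negative samples held 0.0181, 0.0320 and 0.0738 RPKM and positive samples 1.68, 1.56 and 1.15 RPKM, from 2 to 7 and from 109 to 175 reads. The groups were far apart, the fitted change was 3.47 log2 units (standard error 0.28, adjusted p = 2.98e-06), and the ratio of mean RPKM was 35.4. The gene passed the filter on low values through positive SW1990 cells alone, so that filter largely set this outcome. CFPAC-1 negative samples held 1, 0 and 0 reads and positive samples 2, 6 and 0 reads. Pooled CFPAC-1 reads were 8.93 times as many in positive cells (exact 95% interval 1.20 to 396), but the samples overlapped at 0 and the fitted change of 0.24 was not called (adjusted p = 0.532).

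*EPPK1* (chr8:144939497-144952635 of GRCh37, minus strand) encodes epiplakin and differs from the other genes in that it is expressed in simple as well as stratified epithelia. In SW1990, negative samples held 1.83, 1.52 and 2.18 RPKM and positive samples 7.92, 5.65 and 7.35 RPKM. In CFPAC-1, negative samples held 2.06, 1.70 and 1.74 RPKM and positive samples 5.07, 4.06 and 4.16 RPKM. The groups were apart in each line, and negative cells of the lines held like levels. The log2 fold change was 1.86 in SW1990 (standard error 0.18, adjusted p = 1.01e-05) and 1.23 in CFPAC-1 (standard error 0.18, adjusted p = 0.000369). With a pseudocount of 1, the CFPAC-1 change was 0.94, under 2-fold. Because the transcript is long, 261 to 1156 reads stood behind each value, the most of any of the 10 genes in negative samples.

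**Figure D3:**
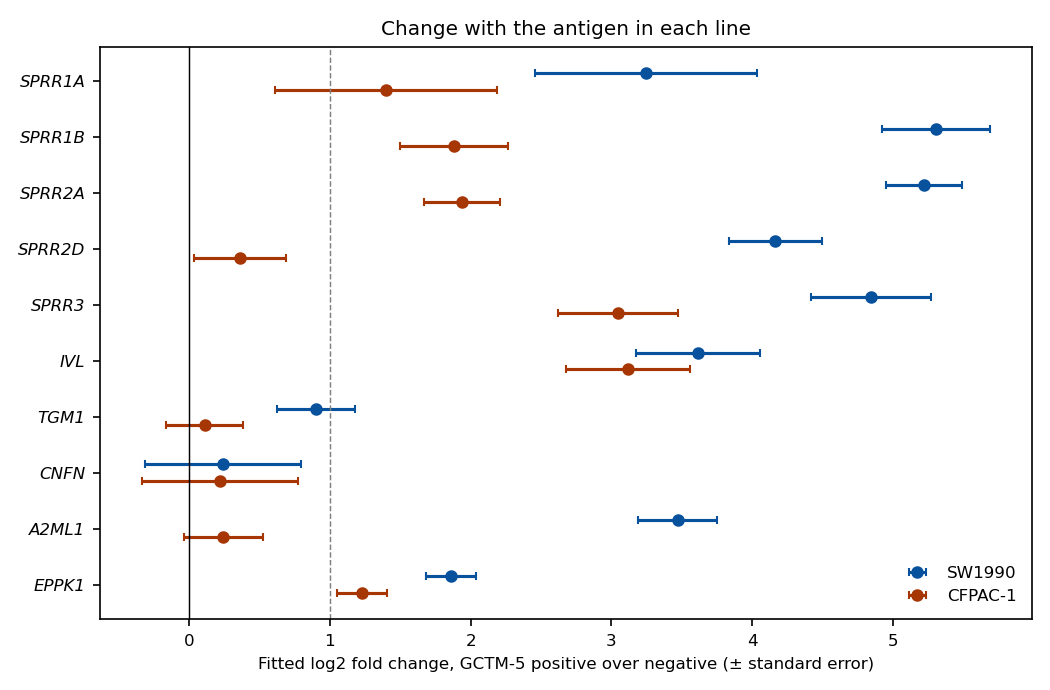
Fitted log2 fold change of GCTM-5 positive over negative cells on the horizontal axis for each of the 10 genes in SW1990 (blue) and CFPAC-1 (brown), with standard error bars. The solid line is no change and the dashed line is 2-fold. *SPRR1B*, *SPRR2A*, *SPRR2D* and *A2ML1* are more than 3 log2 units further right in SW1990 than in CFPAC-1, while *IVL* and *CNFN* lie side by side.

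The change with the antigen differed between the lines for 5 of the 10 genes (adjusted p under 0.05 for the interaction of line and antigen), and 26.9% of all genes tested passed this test. All 5 changed more in SW1990. The change in SW1990 minus that in CFPAC-1, in log2 units, was 3.42 for *SPRR1B* (standard error 0.54, adjusted p = 0.000747), 3.28 for *SPRR2A* (0.38, 0.000105), 3.80 for *SPRR2D* (0.46, 0.000138) and 3.23 for *A2ML1* (0.40, 0.000151). For *SPRR3* it was 1.80 (0.60, 0.0449), a call that was lost in 14 of 21 other settings (1.12 to 2.00). Among these were those without any single sample other than SW1990 negative replicate 3, CFPAC-1 negative replicate 1 or CFPAC-1 positive replicate 3. Because *SPRR2A* and *SPRR2D* were at 0 reads in negative CFPAC-1 cells, their difference depended on the pseudocount. With 0.01 it was 0.41 for *SPRR2A* (adjusted p = 0.572) and 3.08 for *SPRR2D* (adjusted p = 0.066), and with voom 2.06 (adjusted p = 0.166) and 3.15 (adjusted p = 0.0603). The *A2ML1* call was kept in the 20 other settings that held the gene, but its size ranged from 1.21 to 3.94. Its CFPAC-1 groups held 1 and 8 reads. The exact 95% interval of their pooled ratio, 1.20 to 396, includes the SW1990 ratio of mean RPKM, 35.4. *IVL* gave a difference of 0.50 (95% interval -0.87 to 1.86, adjusted p = 0.598), and *EPPK1* 0.64 (95% interval 0.09 to 1.18, adjusted p = 0.0801). The *EPPK1* difference passed with quantile normalization (0.80, adjusted p = 0.0194), median centring (0.79, adjusted p = 0.0296) and the replicate block (0.64, adjusted p = 0.0475), and without SW1990 negative replicate 3 (0.76, adjusted p = 0.0492) or positive replicate 2 (0.78, adjusted p = 0.0448). For *SPRR1A*, *TGM1* and *CNFN* the difference was 1.85 (95% interval -0.58 to 4.28), 0.79 (-0.06 to 1.65) and 0.02 (-1.69 to 1.73). Over all genes tested the median of this difference was -0.15.

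Between the lines, negative cells differed in the *SPRR2* genes above all. There, 3 of the 10 genes were called higher in SW1990 than in CFPAC-1, against 21.9% of all genes, and 1 was called lower, against 15% of all genes. These counts are near the shares of all genes, so they set the 10 genes apart in neither direction. With a pseudocount of 1, only *SPRR2A* stayed called higher. *SPRR2A* was at least 16.7-fold and *SPRR2D* at least 4.57-fold higher, computed against a floor of 3 reads for CFPAC-1, where neither had a read (adjusted p = 9.59e-09 and 1.73e-06 in the fit). *IVL* was 1.46 log2 units higher (adjusted p = 0.0108), a call lost in 8 of 22 other settings, among them those without SW1990 negative replicate 1 (1.08) or 3 (1.58) and without CFPAC-1 negative replicate 2 (1.04) or 3 (1.52). *SPRR3* was the gene called lower in SW1990, with a log2 difference of -1.44 (standard error 0.43, adjusted p = 0.00969). That call was lost in 5 of 22 other settings, among them those without SW1990 negative replicate 1 (-1.13) and without CFPAC-1 negative replicate 2 (-1.16) or 3 (-1.18). *EPPK1* and *TGM1* differed by 0.00 and 0.14 log2 units (95% intervals -0.39 to 0.38 and -0.46 to 0.75). The median over all genes was 0.19 in this comparison, so the lines were not centred on the same level.

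Among positive cells, 5 of the 10 genes were called higher in SW1990, against 14.8% of all genes. These groups are the ones used in the comparisons above, so that the values are not independent of them. The log2 difference was 8.48 for *SPRR2A* (adjusted p = 2.5e-10), 7.23 for *SPRR2D* (adjusted p = 4.69e-09), 4.22 for *SPRR1B* (adjusted p = 1.63e-06), 3.66 for *A2ML1* (adjusted p = 4.16e-07) and 1.96 for *IVL* (adjusted p = 0.00213). The *IVL* call was lost with a pseudocount of 0.01 (2.03, adjusted p = 0.0654). For *SPRR2D*, pooled reads were 374 times as many (exact 95% interval 103 to 3094). *TGM1* and *EPPK1* were 0.94 and 0.64 log2 units higher in SW1990, which is under 2-fold, with adjusted p of 0.011 and 0.00782.

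**Figure D4:**
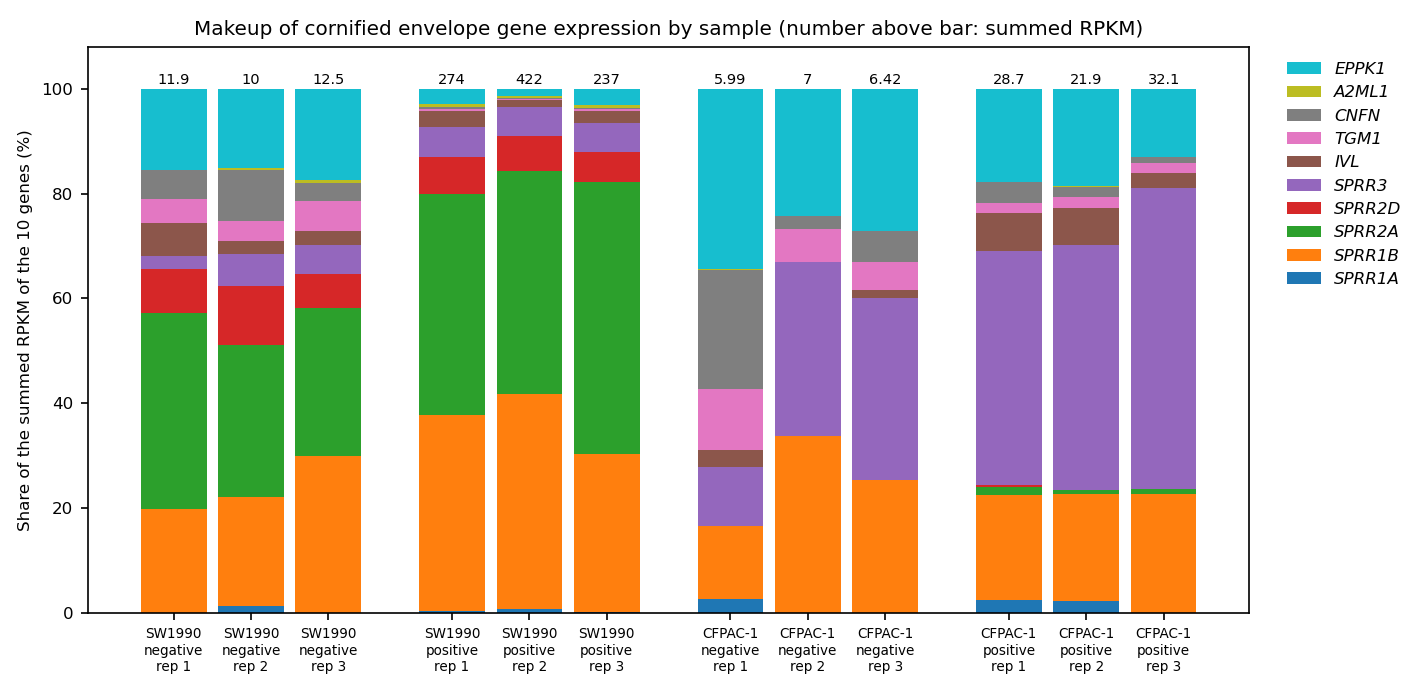
Share of each gene in the summed RPKM of the 10 genes on the vertical axis (percent), with 1 bar per sample and the summed RPKM above it. *SPRR2A* and *SPRR1B* fill most of each positive SW1990 bar, and *SPRR3* is the widest block in each positive CFPAC-1 bar.

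The sum over the 10 genes and its makeup also differed between groups. Summed RPKM was 10.0 to 12.5 in negative SW1990 samples (median 11.9) and 237 to 422 in positive ones (median 274). In CFPAC-1 it was 5.99 to 7.0 in negative (median 6.42) and 21.9 to 32.1 in positive samples (median 28.7). In positive SW1990 cells, *SPRR2A* made up 42.2% to 52.0% of the sum and *SPRR1B* 30.1% to 41.1%, while *SPRR3* came to 5.62% to 5.87%. In positive CFPAC-1 cells *SPRR3* made up 44.6% to 57.4%, *SPRR1B* 20% to 22.8% and *EPPK1* 13.0% to 18.5%, and *SPRR2A* was at most 1.58%. Without the antigen, *EPPK1* held 24.3% to 34.3% of the sum in CFPAC-1 and 15.1% to 17.5% in SW1990.

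Other genes of the cornified envelope were counted from lists set by function, to be read against the 4.59% and 5.65% of all genes called higher in positive SW1990 and CFPAC-1 cells, and the 7.48% and 4.13% called lower. Of the 6 other *SPRR* genes, 3 were at 0 in all samples, and the 3 that could be fitted were all called higher in positive SW1990 cells and none in CFPAC-1. Among them *SPRR2C* went from 0 to 2.67 RPKM and *SPRR2E* from 0.191 to 3.84 RPKM in SW1990, with the same limit on shared reads as for *SPRR2A*. Both were at or near 0 in every other group and passed the filter on low values through positive SW1990 cells alone. That filter therefore largely set the outcome for them in both lines. The late cornified envelope genes, which encode proteins of the outermost epidermal layers, were nearly silent. Of these 18 genes, 15 were at 0 in all samples and 0 passed the filter on low values. Of 18 further envelope and cornified layer proteins, 11 were fitted, 3 were called higher in SW1990 and 1 in CFPAC-1. *PPL*, which encodes periplakin and links the envelope to desmosomes and keratin filaments, went from 21.7 to 106 RPKM in SW1990 (log2 fold change 2.30, adjusted p = 9.26e-07) and was at 30.3 and 24.5 RPKM in CFPAC-1 (adjusted p = 0.131). *SCEL*, encoding sciellin, rose from 11.6 to 66.4 RPKM in SW1990, and *CDSN*, encoding corneodesmosin, rose from 1.65 to 5.78 RPKM in CFPAC-1. Of the 6 other plakins, *PPL* alone was called higher in SW1990 and 0 were called in CFPAC-1.

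Of 14 enzymes that build or modify the envelope and barrier lipids, 9 were fitted, 1 was called higher in SW1990 and 4 in CFPAC-1, with *SULT2B1* in both. *SULT2B1*, a cholesterol sulphotransferase, rose in SW1990 from 0.202 to 2.43 RPKM and in CFPAC-1 from 0.590 to 1.91 RPKM. In CFPAC-1, *CASP14*, a caspase of the epidermis, rose from 0.0319 to 0.850 RPKM and *ELOVL4*, an elongase of very long fatty acids, from 0.325 to 1.78 RPKM. *CASP14* passed the filter on low values through positive CFPAC-1 cells alone, so that filter largely set its call. *ELOVL4* was at or near 0 in SW1990 and passed through CFPAC-1 cells alone. Of 10 protease inhibitors, 7 were fitted. In SW1990 2 were called higher, and in CFPAC-1 1 was called higher and 3 lower, against 4.13% of all genes lower there. *CST6*, encoding cystatin M/E, which limits proteases of the cornified layer, was called higher in both lines, at 14.6 and 86.6 RPKM in SW1990 and 3.29 and 18.6 RPKM in CFPAC-1. *SERPINB2* rose from 17.7 to 103 RPKM in SW1990, whereas *SERPINB4* fell from 9.37 to 1.10 RPKM in CFPAC-1.

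All 15 regulators of squamous differentiation were fitted. In SW1990, 7 were called higher and 2 lower in positive cells, against 4.59% and 7.48% of all genes. In CFPAC-1, 2 were called higher and 1 lower, against 5.65% and 4.13%. The grainyhead factor genes *GRHL1* and *GRHL2* were called higher in both lines, and *GRHL1* rose from 0.642 to 3.11 RPKM and from 0.952 to 2.31 RPKM. *GRHL2* rose from 4.70 to 33.0 RPKM and from 13.7 to 28.5 RPKM in SW1990 and CFPAC-1. *OVOL1*, which encodes a factor of epidermal differentiation, rose from 0.461 to 8.69 RPKM in SW1990. In CFPAC-1 it was at 7.83 RPKM without and 7.95 RPKM with the antigen (adjusted p = 0.913). Of 7 keratins of stratified epithelia, 5 were fitted. *KRT13* was called higher and *KRT14* lower in positive SW1990 cells, and *KRT5* was called higher in positive CFPAC-1 cells, at 0.103 and 1.01 RPKM. *KRT14* passed the filter on low values through negative SW1990 cells alone.

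The genes whose pattern over the 12 samples was most like that of a cornified envelope gene were found by the root-mean-square distance between gene-centred log2(RPKM + 0.1) values, among the 13267 genes that averaged at least 1 RPKM. For *SPRR1B*, whose own root-mean-square deviation was 2.40 log2 units, the nearest were *FUT3* at 0.764, *UPK2* at 0.819 and *SYT8* at 0.917. *FUT3* encodes a fucosyltransferase of Lewis antigens and *UPK2* a uroplakin of the urothelial surface. For *IVL*, with a deviation of 1.96, they were *ZBED2* at 0.612, *CST6* at 0.676 and *C4orf19* at 0.719. In SW1990, *ZBED2* averaged 5.93 RPKM without and 59.4 RPKM with the antigen, and in CFPAC-1 2.83 and 15.9 RPKM. For *TGM1*, which varied by 0.498 only, the nearest were *PPARD* at 0.203, *ABCA7* at 0.204 and *ACCN2* at 0.210. These distances are a description of 12 samples that fall into 4 groups.

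Markers of other cell types were read in the same samples. The 6 epithelial markers, *EPCAM*, *CDH1*, *KRT7*, *KRT8*, *KRT18* and *KRT19*, were above 0 in every group, and in SW1990 their summed RPKM was 1595 to 1942 without the antigen and 4360 to 4841 with it. In CFPAC-1 their sum was 5411 to 6173 in negative and 6676 to 8162 in positive samples. In SW1990, 5 of these 6 markers were called higher in positive cells, against 4.59% of all genes, and in CFPAC-1 0 were, against 5.65%. In CFPAC-1, *KRT7*, *KRT8* and *KRT18* were higher by under 2-fold (0.86, 0.70 and 0.70 log2 units, limma adjusted p = 0.00566, 0.00649 and 0.00103). *CDH1*, *EPCAM* and *KRT19* were at 0.31, -0.08 and -0.14 there (adjusted p = 0.115, 0.729 and 0.361). The sum of the 6 fibroblast markers in SW1990 was 12.7 to 22.6 RPKM without the antigen and 3.90 to 4.86 RPKM with it, where 3 of them were at 0. In CFPAC-1 they summed to 1.26 to 1.72 and 1.59 to 2.39 RPKM, with 2 at 0 in each group. Most of the fibroblast sum in SW1990 was *LUM*, at a mean of 13.2 RPKM without and 2.43 RPKM with the antigen. *PDGFRB* was also called lower there (1.76 and 0.0381 RPKM), and *COL1A1* was not called (3.57 and 1.93 RPKM). *PDGFRB* passed the filter on low values through negative SW1990 cells alone. The 3 endothelial markers summed to 14.8 to 18.8 RPKM in the negative group of SW1990 and to 1.47 to 2.05 RPKM in its positive group, and were under 0.485 RPKM throughout CFPAC-1. Nearly all of the SW1990 sum without the antigen was *CDH5*, at a mean of 15.6 RPKM, against 1.33 RPKM with it. *PECAM1* was at 0.717 and 0.363 RPKM and was not called. The 3 leukocyte markers summed to 8.61 to 9.57 RPKM in negative and 2.60 to 4.38 RPKM in positive CFPAC-1 samples, and in SW1990 to 0.905 to 1.81 RPKM without the antigen and 0.268 to 0.326 RPKM with it. Of these, *CD14* was called lower in positive cells of both lines. These lines are cultures of carcinoma cells, and the part of such marker differences in the results above was not tested.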

How the data were processed

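RNA-seq of 12 samples was analysed from the deposited RPKM table. Per the study's methods, the authors aligned reads to hg19/GRCh37 and made the RPKM values with QuasR from read counts, library size and gene length. The QuasR version, annotation, use of strand and handling of reads matching several genes are not given in the sources used here. The labels name bcl2fastq. The labels and the methods name different library kits, only 1 of them stranded.

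Samples were grouped by line and sorted population from the labels, with no pairing. The model, limma 3.58.1 in R 4.3.3 with 4 group means and an intensity trend in eBayes, was fitted to log2(RPKM + 0.1) of the 16236 genes that averaged at least 0.1 RPKM. TCC, named by the study, was not used. A pseudocount understates the change of low genes. Whole reads were recovered for all 19654 genes above 0 (tolerance 0.01 read) and served for bounds, intervals and voom. Ratios of reads use exact 95% intervals, and folds against groups at 0 use a floor of 3 reads a library. Gene positions are those of GENCODE 44 on GRCh37, and promoters and motif shares come from a RefSeq table of GRCh38.p14, which held 7 of the 10 genes. Shared 50-base windows were counted over annotated transcripts of the *SPRR* genes and the 10 genes only. Other steps used Python 3.11.15, matplotlib 3.10.9, scipy 1.17.1, numba 0.67.0, numpy 2.4.6 and pandas 2.3.3.

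The genes and lists were chosen with earlier results of these data known. Besides the 10 genes, the text names in each list the genes called in both lines and the 2 with the largest change among those called in each line, and the 3 genes nearest to *SPRR1B*, *IVL* and *TGM1*. Some genes that this rule names are not reported here. Other settings tried were a replicate block, voom, each line alone, each sample left out, median centring, quantile normalization, an untrended eBayes, a pseudocount of 1 or 0.01, no filter or a filter at a mean of 1 RPKM, and adjusted p under 0.05 with no fold threshold.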

Additional observations from a re-analysis of the deposited data

Results flagged for a closer look

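A test of the interaction of line and antigen marked 5 cornified envelope genes whose change with GCTM-5 differed between SW1990 and CFPAC-1 (adjusted p under 0.05, limma). Of all genes tested, 26.9% passed this test. The change in SW1990 exceeded that in CFPAC-1 by 3.42 log2 units for *SPRR1B*, by 3.28 for *SPRR2A*, by 3.80 for *SPRR2D*, by 1.80 for *SPRR3* and by 3.23 for *A2ML1*. With a pseudocount of 0.01, and likewise with voom, only 2 of the calls remained, those of *SPRR1B* and *A2ML1*. The *SPRR2A* difference was then 0.41 and 2.06. For *A2ML1*, negative and positive CFPAC-1 cells held 1 and 8 reads in all, so the size of its difference is uncertain. All 3 positive SW1990 samples were above all 3 negative ones for each of the 5 genes. In CFPAC-1 the same held for *SPRR1B*, *SPRR2A* and *SPRR3*.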

How the results depend on the processing

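Of the counts of called genes, those in SW1990 (8) and between lines in positive cells (5) stayed within 1.5 times under every alternative. With a pseudocount of 1, 3 genes were called in CFPAC-1 and 3 in both lines in place of 5 each, and 1 in place of 3 was higher in negative SW1990 than negative CFPAC-1 cells. Changes that differed between lines numbered 2 in place of 5 with a pseudocount of 0.01 and 2 with voom. With the replicate block, which pairs samples of the same number within a line, 8 genes were called in SW1990, 5 in CFPAC-1 and 5 in both, 6 differed in change between lines, and 3 (negative cells) and 6 (positive cells) were higher in SW1990 than in CFPAC-1. Same-numbered samples deviated together only weakly, with correlations between 0.016 and 0.185 (SW1990) and between -0.059 and 0.001 (CFPAC-1), so samples were left unpaired. Of 6 samples in each line, 3 in SW1990 and 0 in CFPAC-1 correlated best with their own number. The *EPPK1* difference between lines passed with the replicate block (adjusted p = 0.0475).

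All values that changed sign were without a call. The *IVL* difference between lines, 0.50, became -0.70 with a pseudocount of 0.01 and -0.81 with voom, and passed the test with a pseudocount of 1 (1.11, adjusted p = 0.0129). The *CNFN* difference became -0.033 and -0.19 in the same settings, and ranged from -0.65 to 0.56 when samples were left out. The *CNFN* change with samples left out was between -0.010 and 0.50 in SW1990 and between -0.32 and 0.89 in CFPAC-1, and the *TGM1* change in CFPAC-1 was between -0.082 and 0.35. The causes were not tested. Few reads limit *SPRR1A*, *CNFN*, *SPRR2A* in CFPAC-1 and *A2ML1* in CFPAC-1.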
